A study of Rattus norvegicus with 9 samples.

Results

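The insulin-like growth factor (IGF) system was examined in the cerebral cortex of rat pups through 9 genes: the ligands Igf1 and Igf2, the receptors Igf1r and Igf2r, and the binding proteins Igfbp2 to Igfbp6. Its members were all probe sets of the array whose platform annotation names exactly 1 gene symbol from that group. This gave 22 probe sets of the 31042 on the array that are not controls, for 9 of the 14217 genes it names (20826 probe sets have 1 symbol, 436 several and 9780 none). All 22 matched a gene of the GRCr8 assembly through their Entrez identifier.

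The animals were Hsd:Sprague Dawley SD rats whose diet held 0 (control), 750 or 2500 ppm of 4-methylimidazole (4-MeI), a small heterocycle that forms when foods brown. Dosing of the F0 parents began 2 weeks before they were paired and went on through their pregnancies, and exposure was continuous over the generations. Cortex was taken on postnatal day 4 from F2b pups, 1 per litter, and 3 pups per group were profiled on 1 array each. Maternal seizures are named in the series title, with no label that ties a pup to an affected dam, and the sex of the pups is not given. The tissue is dissected whole cortex, so a value averages over all cells that the dissection took.

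IGF-I and IGF-II are secreted growth factors that act through the tyrosine kinase receptor encoded by Igf1r. The protein of Igf2r binds IGF-II and carries it to lysosomes, and the binding proteins hold both ligands outside the cell and set how much is free. In the brain after birth, Igf1 is made by some neurons and by microglia, while Igf2, an imprinted gene, is made mainly by the meninges, blood vessels and choroid plexus.

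On the GRCr8 assembly, Igf2 lies on chromosome 1 from 207243873 to 207261263, and Igfbp2 on chromosome 9 from 81864811 to 81892179. Igfbp5 follows on the same chromosome from 81901605 to 81914187, with 9425 bases between the pair. Igf1 lies on chromosome 7 from 24169608 to 24249446. Igf2 and Igfbp2 correlated over the 9 arrays (Pearson 0.89, Spearman 0.52), though not in the same order within each group, and Igfbp5 is the neighbour of Igfbp2. The 250 bases before the starts that the RefSeq table gives for these 3 genes are shown for that reason, 5′ to 3′, with GC boxes (GGGCGG or CCGCCC) in capitals. TATA boxes (TATAAA or TTTATA) were searched on both strands as well and were not found in these 4 windows.
Igf2, downstream start (chr1:207250476-207250725, minus strand): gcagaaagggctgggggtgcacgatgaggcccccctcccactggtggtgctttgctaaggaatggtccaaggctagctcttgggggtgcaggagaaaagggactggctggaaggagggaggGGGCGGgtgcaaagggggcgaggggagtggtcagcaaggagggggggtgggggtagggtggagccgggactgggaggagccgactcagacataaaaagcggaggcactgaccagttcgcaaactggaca
Igf2, upstream start (chr1:207253981-207254230, minus strand): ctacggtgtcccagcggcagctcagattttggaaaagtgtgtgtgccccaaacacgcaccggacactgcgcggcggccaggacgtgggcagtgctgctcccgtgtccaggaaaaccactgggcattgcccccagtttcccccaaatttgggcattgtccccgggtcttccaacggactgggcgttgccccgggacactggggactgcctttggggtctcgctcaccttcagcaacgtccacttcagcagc
Igfbp2 (chr9:81864561-81864810, plus strand): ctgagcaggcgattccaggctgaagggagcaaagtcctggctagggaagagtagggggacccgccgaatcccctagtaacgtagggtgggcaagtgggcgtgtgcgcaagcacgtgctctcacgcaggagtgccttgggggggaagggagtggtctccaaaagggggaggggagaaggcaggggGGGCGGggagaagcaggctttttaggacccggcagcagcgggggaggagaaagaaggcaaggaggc
Igfbp5 (chr9:81914188-81914437, minus strand): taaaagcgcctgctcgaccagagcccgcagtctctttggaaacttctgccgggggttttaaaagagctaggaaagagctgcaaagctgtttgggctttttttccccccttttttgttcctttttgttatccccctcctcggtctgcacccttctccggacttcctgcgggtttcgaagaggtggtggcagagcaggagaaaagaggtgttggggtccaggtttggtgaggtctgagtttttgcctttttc
Igf2 had 1 GC box before its downstream start and 0 before its upstream start. These windows held 7 and 15 CpG dinucleotides. Igfbp2 also had 1 GC box, with 11 CpG dinucleotides, while Igfbp5 had 0 GC boxes and 8 CpG dinucleotides. Of 33469 windows of this length in the table, 30.5% held a GC box and 12.9% a TATA box. The arrays carry no readout of these windows.

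All values below are log2 intensities of the robust multi-array average (RMA), so a difference of 1 is a doubling of intensity, and intensities of different probe sets are not compared with each other. The array medians lay between 7.66 and 7.70. Control replicate 3 and 750 ppm replicate 3 stood apart: the highest correlation of the first with any other array was 0.995 over all probe sets, and the second was most alike to 2500 ppm replicate 3 (r = 0.996) rather than to its own group. The mean of 9 genes of cortical excitatory neurons was 10.47 to 10.58 in controls, 10.25 to 10.44 at 750 ppm and 10.47 to 10.67 at 2500 ppm. Tbr1, also of this list, was under the filter on dim probe sets. Genes of bordering tissue are given by list means per array, which were not tested. The mean of 17 meningeal and fibroblast genes was 8.23 to 9.20 in controls, 9.70 to 9.99 at 750 ppm and 9.38 to 9.75 at 2500 ppm. The mean of 7 choroid plexus and ependymal genes was 6.62 to 6.79, 6.90 to 7.08 and 7.65 to 8.84 in the same order. By limma, 2 of the 17 meningeal genes and 1 of the 7 choroid plexus genes were called at 2500 ppm against control, and 0 of either at 750 ppm. In bulk tissue, fewer cells of a type and less RNA per cell cannot be told apart.

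No IGF probe set passed the threshold in any of the 3 comparisons. Of the 22 probe sets, 18 passed the filter on dim probe sets and were tested, and these cover all 9 genes. The test was limma over 21729 probe sets with Benjamini-Hochberg adjustment and a threshold of 0.05. At 2500 ppm against control, 0 of 18 were called, beside 0.686% of all probe sets tested, and at an unadjusted p under 0.05 there were 5 higher and 0 lower (all tested, 6.89% higher and 9.12% lower). At 750 ppm against control 0 were called (0.0092% of all), with 3 higher and 1 lower at that unadjusted level (5.77% and 4.37% of all). Between the doses 0 were called (0.322% of all), with 1 higher and 3 lower (5.25% and 7.33% of all).

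The 18 probe sets lay on both sides of 0, with 10 above and 8 below in each comparison (52.2%, 50.9% and 47.9% of all tested were above 0 at 2500 ppm, at 750 ppm and between the doses). Their median difference was 0.029 at 2500 ppm and 0.024 at 750 ppm, against 0.0070 and 0.0023 over all probe sets tested. Their median absolute difference was 0.17 in both, against 0.091 and 0.080 over all. Both comparisons use the same 3 control arrays, so they are not independent. All 3 treated arrays lay above all 3 controls for 5 of 18 probe sets at 2500 ppm (9.87% of all tested) and 4 at 750 ppm (7.61%). They lay below for 0 at 2500 ppm (13.4%) and for 3 at 750 ppm (6.58%). Between the doses the arrays separated upward for 1 (7.88%) and downward for 1 (9.52%).

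**Figure D1:**
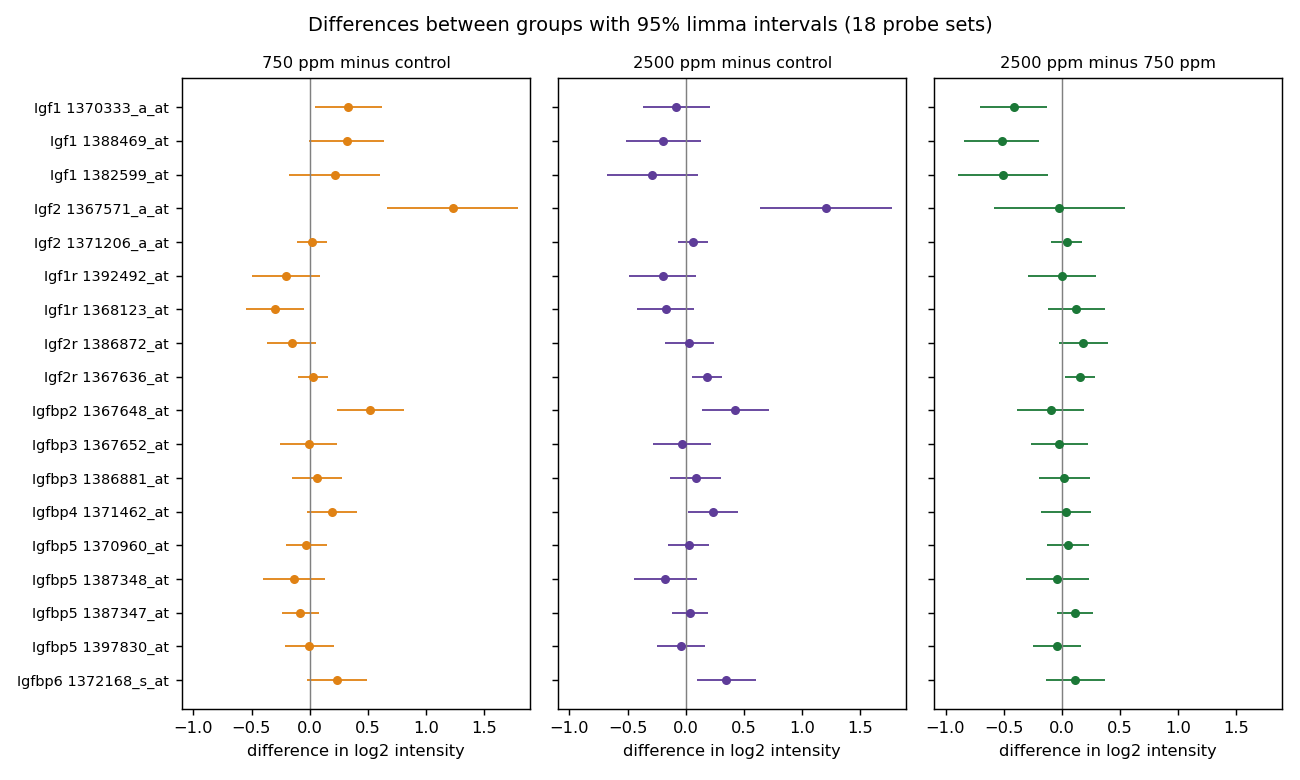
Difference in log2 intensity between groups for the 18 tested IGF probe sets, with 1 panel per comparison. Points are limma estimates and bars their 95% confidence intervals; Igf2 on 1367571_a_at stands at 1.23 and 1.21 above control, and the 3 Igf1 probe sets stand below 0 in the comparison of the doses.

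Igf2, the fetal growth ligand, had the highest differences from control among the IGF probe sets, on 1 of its 4 probe sets. On 1367571_a_at the controls read 11.37, 10.63 and 10.18 in replicates 1, 2 and 3. The 750 ppm arrays read 12.01, 11.93 and 11.93, and the 2500 ppm arrays 11.68, 11.97 and 12.15. Each treated array was above each control, and the spread lay in the controls, with an SD of 0.60 (n = 3) against 0.042 at 750 ppm and 0.24 at 2500 ppm. The difference was 1.21 at 2500 ppm (SE 0.25, 95% interval 0.64 to 1.77, limma adjusted p = 0.0691), a 2.31-fold intensity. It was 1.23 at 750 ppm (SE 0.25, interval 0.67 to 1.80, limma adjusted p = 0.201). Among all probe sets tested it ranked 25 and 26 from the highest upward difference at 2500 and 750 ppm.

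The difference between the doses was within this spread, at -0.022 (interval -0.59 to 0.54, limma adjusted p = 0.982). Control replicate 1 decided the side of the threshold. Without it, Igf2 was 1.53 higher at 2500 ppm (limma adjusted p = 0.0201) and 1.55 higher at 750 ppm (limma adjusted p = 0.0294). Over all probe sets tested, calls without it were 144 and 45, against 149 and 2 in the main fit. Without control replicate 3, the Igf2 differences were 0.94 (limma adjusted p = 0.128) and 0.96 (limma adjusted p = 0.328). With array weights, which reduce the influence of deviating arrays, they were 0.73 and 0.73 (limma adjusted p = 0.0615 and 0.0963).

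Meningeal genes moved with Igf2. Over the 9 arrays, r between Igf2 on 1367571_a_at and the mean of the 17 meningeal genes was 0.98, and the controls held the 3 lowest values of both. The points share arrays and normalization, and this value is a description. At 2500 ppm 16 of the 17 were above control, with a median of 0.87, and at 750 ppm all 17 were, with a median of 1.18. The correlation with the means of 12 endothelial and 9 pericyte and smooth muscle genes was 0.96 and 0.94, and with 7 choroid plexus genes 0.44. Ttr, the choroid plexus gene for transthyretin, rose by 5.67 at 2500 ppm (limma adjusted p = 0.0135), and its difference at 750 ppm was 1.33 (limma adjusted p = 0.511). The part of these tissues in the Igf2 difference was not tested.

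The other probe sets of Igf2 did not show the difference. On 1371206_a_at, intensities lay between 6.94 and 7.11 on all 9 arrays, and the differences from control were 0.061 and 0.019 at 2500 and 750 ppm (limma adjusted p = 0.633 and 0.927). Both 1398322_at (5.61 to 5.91) and 1388252_at (5.42 to 5.86) were left out by the filter, which removed probe sets with a mean under 6.35. The correlation of 1367571_a_at with these 3 lay between -0.21 and 0.35. The platform annotation gives these 3 the same source sequence, which is not that of 1367571_a_at. Whether they report the same transcripts as 1367571_a_at was not tested. Statements on Igf2 therefore rest on a single probe set.

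**Figure D2:**
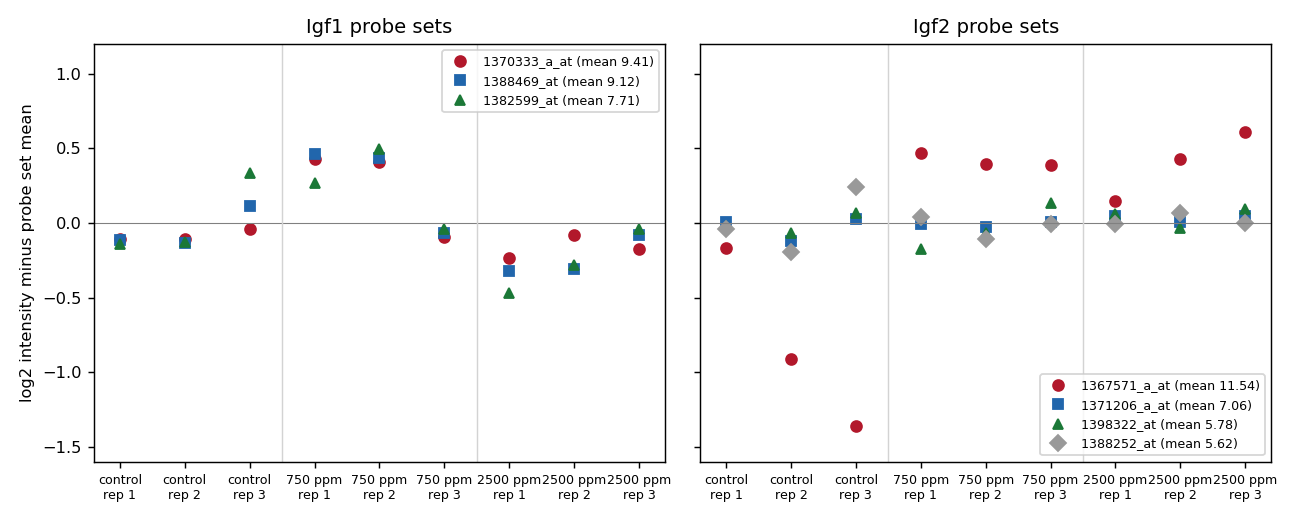
Log2 intensity of each probe set of Igf1 (left) and Igf2 (right) minus its own mean over the 9 arrays, in each array. On 1370333_a_at and 1388469_at Igf1 is highest in 750 ppm replicates 1 and 2, and on 1382599_at control replicate 3 lies above 750 ppm replicate 1, while of the 4 Igf2 probe sets only 1367571_a_at varies by more than 0.44 over the arrays.

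Igf1, the ligand of postnatal growth, followed another order, with 750 ppm highest and 2500 ppm lowest on each of its 3 probe sets. On 1370333_a_at the controls read 9.30, 9.30 and 9.37, the 750 ppm arrays 9.84, 9.82 and 9.31, and the 2500 ppm arrays 9.17, 9.33 and 9.23. The first 2 arrays of the 750 ppm group stood above all others, and 750 ppm replicate 3 lay within the range of the controls and the 2500 ppm arrays. On 1388469_at these 2 arrays again stood highest, at 9.58 and 9.55, and replicate 3 read 9.05, against 8.98 to 9.23 in controls and 8.80 to 9.04 at 2500 ppm. On 1382599_at the 750 ppm arrays read 7.97, 8.20 and 7.67, and control replicate 3, at 8.04, lay above the first of them. The other controls read 7.57 and 7.58 there, and the 2500 ppm arrays 7.23 to 7.67. The correlation between these probe sets was 0.79 to 0.93 over the 9 arrays.

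The differences of Igf1 between the doses were -0.41, -0.51 and -0.51 on 1370333_a_at, 1388469_at and 1382599_at (SE 0.13, 0.14 and 0.17). Their limma adjusted p were 0.251, 0.204 and 0.292. From control, the 750 ppm group differed by 0.33, 0.32 and 0.22 (limma adjusted p = 0.428, 0.494 and 0.673). The 2500 ppm group differed from control by -0.079, -0.19 and -0.29 (limma adjusted p = 0.794, 0.542 and 0.454), with 95% intervals of -0.37 to 0.21, -0.52 to 0.13 and -0.68 to 0.10.

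Igf1 was called under alternatives that leave out 750 ppm replicate 3 or weight the arrays. Calls over all probe sets rose under both. Leaving out that array gave 49 calls at 750 ppm, against 2 in the main fit, and 728 between the doses, against 70. Array weights gave 340 and 721. Without 750 ppm replicate 3, 1370333_a_at was 0.51 higher at 750 ppm than in controls (limma adjusted p = 0.0425) and differed by -0.58 between the doses (limma adjusted p = 0.00445). Without it, 1388469_at differed by 0.49 from control (limma adjusted p = 0.101) and by -0.69 between the doses (limma adjusted p = 0.0115). For 1382599_at the values were 0.36 (limma adjusted p = 0.450) and -0.65 (limma adjusted p = 0.0871), neither of them called. With all 9 arrays kept and array weights, the differences between the doses were -0.51, -0.61 and -0.60 on 1370333_a_at, 1388469_at and 1382599_at (limma adjusted p = 0.0240, 0.0206 and 0.0484). The differences of Igf1 at 750 ppm from control were then 0.46, 0.49 and 0.48 (limma adjusted p = 0.0346, 0.0404 and 0.0707). In 750 ppm replicate 3 the mean of 11 striatal genes was 7.94, against 9.43 and 9.32 in the other 750 ppm arrays, and that of 6 interneuron genes was 9.82 against 10.82 and 10.79. The striatal means were 9.13 to 9.57 in controls and 7.90 to 8.75 at 2500 ppm. The interneuron means were 10.48 to 10.78 in controls and 10.00 to 10.22 at 2500 ppm. Over the 9 arrays, Igf1 on 1370333_a_at correlated with the striatal mean at 0.57 and with the interneuron mean at 0.70. Its correlation was 0.61 with the microglial mean, -0.68 with that of cortical excitatory neurons and -0.77 with that of the oligodendrocyte lineage. Microglial and macrophage genes had a mean of 8.09, 7.98 and 7.78 in the 750 ppm arrays in replicate order, 7.50 to 7.74 in controls and 7.83 to 7.89 at 2500 ppm. The part of any of these cells in the Igf1 values was not tested.

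**Figure D3:**
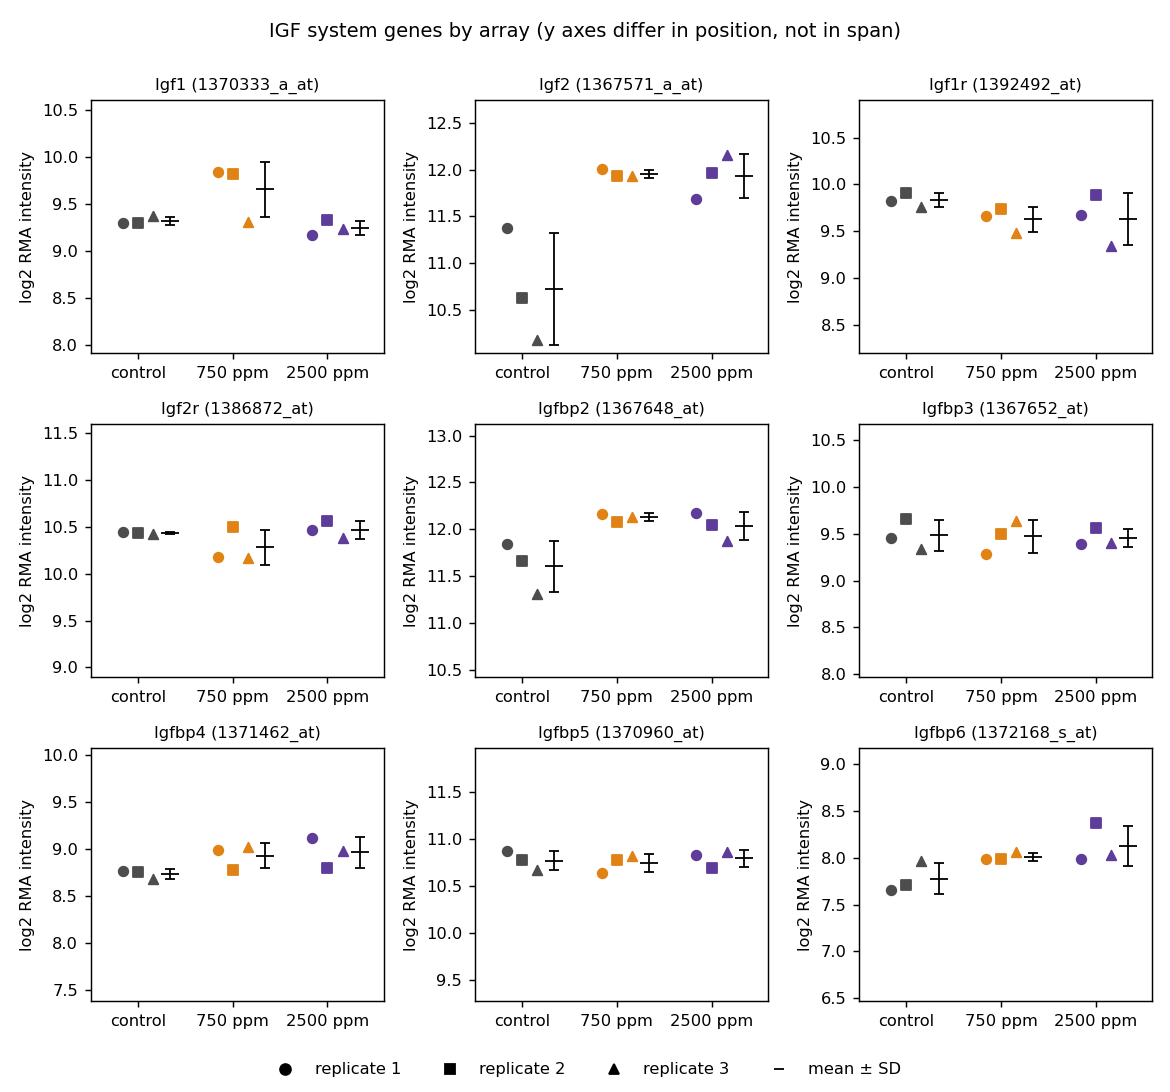
Log2 RMA intensity by array for the 9 IGF genes, each shown by its brightest probe set on average. Symbols give the replicate, bars the mean and SD of 3 arrays, and the y axes cover the same span; the controls of Igf2 spread from 10.18 to 11.37 and lie below all treated arrays.

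The receptor genes differed by small amounts. Igf1r, the signalling receptor of both ligands, was lower than all controls in all 750 ppm arrays on both probe sets. On 1368123_at the controls read 9.16, 9.15 and 8.93, the 750 ppm arrays 8.80, 8.89 and 8.65, and the 2500 ppm arrays 8.999, 9.04 and 8.69. The difference was -0.30 at 750 ppm (SE 0.11, limma adjusted p = 0.409) and -0.17 at 2500 ppm (limma adjusted p = 0.477). On 1392492_at it was -0.20 in both (limma adjusted p = 0.598 and 0.485), with 2500 ppm arrays from 9.34 to 9.89 and controls from 9.76 to 9.91. The 750 ppm arrays read 9.48 to 9.74 there, so the highest of them was close to the lowest control. Without 2500 ppm replicate 3, the Igf1r differences at 2500 ppm were -0.061 on 1368123_at and -0.052 on 1392492_at (limma adjusted p = 0.838 and 0.870). Without 2500 ppm replicate 2, the latter was -0.33 (limma adjusted p = 0.279). Replicate 3 was the lowest array of each group on both probe sets.

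Igf2r, the receptor that clears IGF-II, differed between its probe sets. On 1367636_at the controls read 9.60, 9.65 and 9.63, the 750 ppm arrays 9.63, 9.66 and 9.67, and the 2500 ppm arrays 9.85, 9.86 and 9.73. All 2500 ppm arrays were above all 6 others, with a difference from control of 0.19 (SE 0.057, interval 0.057 to 0.31, limma adjusted p = 0.163). On 1386872_at the 2500 ppm difference was 0.032 (interval -0.18 to 0.24, limma adjusted p = 0.891). There 750 ppm replicates 1 and 3 read 10.18 and 10.17 against 10.43 to 10.45 in controls, but 750 ppm replicate 2 lay above every control. The 750 ppm difference on this probe set was -0.15 (limma adjusted p = 0.587). The correlation between both probe sets was 0.42.

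Igfbp2, a binding protein with high affinity for IGF-II, had the largest difference among the binding proteins. On 1367648_at the controls read 11.84, 11.66 and 11.31, the 750 ppm arrays 12.17, 12.08 and 12.13, and the 2500 ppm arrays 12.17, 12.05 and 11.88. Each treated array was above each control, but the lowest 2500 ppm array (11.88) was close to the highest control (11.84). The difference was 0.52 at 750 ppm (SE 0.13, interval 0.24 to 0.81, limma adjusted p = 0.218) and 0.43 at 2500 ppm (SE 0.13, interval 0.14 to 0.72, limma adjusted p = 0.151). Igfbp2 was not called under any alternative. Without control replicate 3 these were 0.38 and 0.28 (limma adjusted p = 0.372 and 0.257), and without control replicate 1 they were 0.64 and 0.55 (limma adjusted p = 0.106 and 0.0852). With array weights they were 0.32 and 0.22 (limma adjusted p = 0.0977 and 0.161). The order of the controls was that of Igf2, while the 2500 ppm arrays ran in the reverse order of Igf2 (11.68, 11.97 and 12.15). Over the 9 arrays, the correlation of Igfbp2 with Igf2 was 0.89 (Spearman 0.52). With the meningeal mean it was 0.90, with the endothelial mean 0.87, and with the means of pericyte and of microglial genes 0.83 each. The part of these cells in the Igfbp2 difference was not tested.

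**Figure D4:**
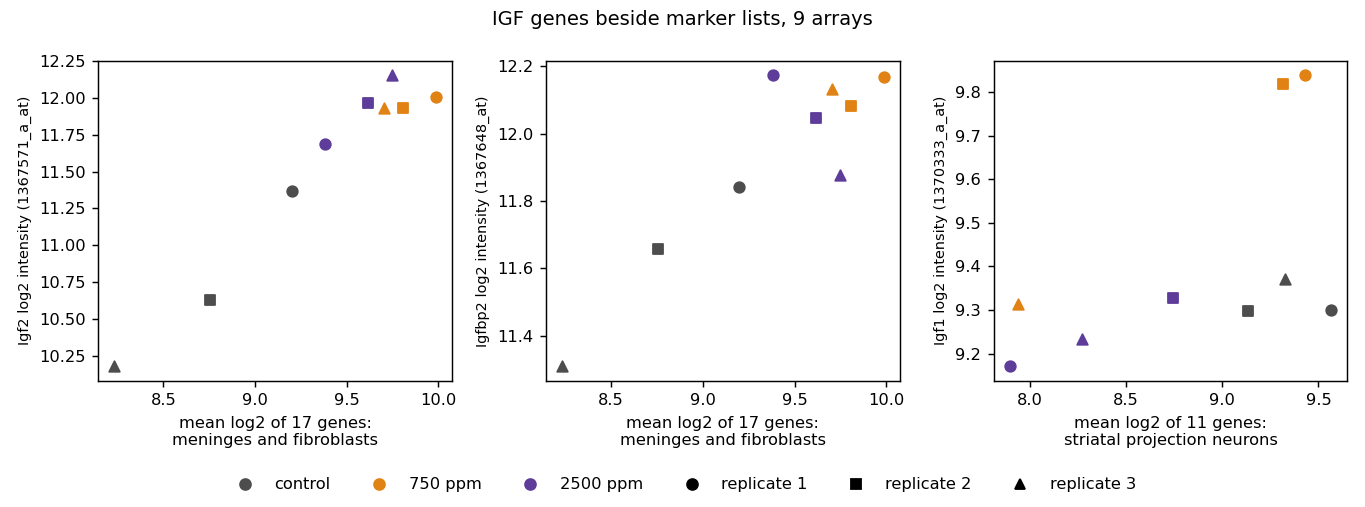
Log2 intensity of Igf2 and Igfbp2 against the mean log2 intensity of 17 meningeal and fibroblast genes, and of Igf1 against that of 11 striatal genes, for the 9 arrays. Colours give the group and symbols the replicate. Igf2 follows the meningeal mean (r = 0.98). Controls and 750 ppm replicates 1 and 2 overlap in striatal mean but not in Igf1. The striatal mean is lower in 750 ppm replicate 3 and the 2500 ppm arrays, and its r with Igf1 over all 9 arrays is 0.57.

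Igfbp4 on 1371462_at and Igfbp6 on 1372168_s_at were also above control in every treated array. Igfbp4, whose protein is cut by the protease pappalysin to release IGF, read 8.77, 8.75 and 8.68 in controls on 1371462_at. At 750 ppm it read 8.99, 8.78 and 9.02, and at 2500 ppm 9.12, 8.80 and 8.98, so replicate 2 of both treated groups was close to the highest control. The differences were 0.20 and 0.23 at 750 and 2500 ppm (SE 0.095, limma adjusted p = 0.525 and 0.276). The correlation of Igfbp4 with the striatal mean was -0.75, and with the interneuron mean -0.64. With the pericyte, endothelial and meningeal means it was 0.65, 0.64 and 0.60.

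Igfbp6, which prefers IGF-II, read 7.65, 7.71 and 7.96 in controls on 1372168_s_at. It read 7.98, 7.98 and 8.06 at 750 ppm and 7.98, 8.37 and 8.03 at 2500 ppm, where replicate 2 stood above the rest. The difference was 0.35 at 2500 ppm (SE 0.11, limma adjusted p = 0.181) and 0.23 at 750 ppm (limma adjusted p = 0.522). Its other probe set, 1387625_at, was left out by the filter, with controls from 6.09 to 6.24 and 2500 ppm arrays at 6.17, 6.74 and 6.65, so that these groups overlapped. Igfbp6 correlated with the choroid plexus mean at 0.63, with the mean of 2 blood genes at 0.62 and with the meningeal mean at 0.41.

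Igfbp3 and Igfbp5 showed no separation of the groups on their probe sets of highest mean. Igfbp3, the main carrier of IGF in serum, read 9.33 to 9.66 in controls, 9.28 to 9.64 at 750 ppm and 9.39 to 9.56 at 2500 ppm on 1367652_at. Its differences from control were -0.0093 and -0.029 at 750 and 2500 ppm, with 95% intervals of -0.26 to 0.24 and -0.28 to 0.22. On 1386881_at they were 0.064 and 0.086. Igfbp5, a binding protein that also attaches to extracellular matrix, read 10.67 to 10.87, 10.63 to 10.82 and 10.69 to 10.86 in the 3 groups on 1370960_at. Its difference at 2500 ppm was 0.025 (interval -0.15 to 0.20), so a change of the size of that of Igfbp2 lay outside the interval. Igfbp5 on 1387348_at was at -0.17 (interval -0.44 to 0.096), and on 1387347_at and 1397830_at at 0.037 and -0.042. On 1387347_at all 750 ppm arrays were below all controls, by 0.078 in the mean (limma adjusted p = 0.705). The highest 750 ppm array (7.315) nearly met the lowest control (7.318) there. The fifth Igfbp5 probe set, 1396152_s_at, read 5.37 to 5.62 and was left out by the filter.

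Other genes that act around the IGF ligands were taken from 3 lists. Of 19 genes on the array for insulin and IGF receptors, ligand partners, messenger RNA binding proteins and proteases, 14 were tested. At 2500 ppm 10 of the 14 were above control, with a median of 0.19 against 0.0070 over all probe sets tested, and 1 was called. This was Mmp2, a gelatinase that can cut binding proteins, which rose from 7.40 to 8.36, by 0.96 (SE 0.12, limma adjusted p = 0.0185). Its call was lost without control replicates 2 and 3 (limma adjusted p = 0.0653 and 0.0509) and without 2500 ppm replicates 1 and 2 (limma adjusted p = 0.0644 and 0.0705). Mmp2 was 0.49 higher at 750 ppm (limma adjusted p = 0.218) and 0.47 higher at 2500 than at 750 ppm (limma adjusted p = 0.164).

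Igfbp7, a related protein of low IGF affinity found in vessels, went from 11.07 in controls to 11.43 at 2500 ppm, a difference of 0.36 (SE 0.097, limma adjusted p = 0.125; with array weights 0.27 and 0.0348). Igf2bp3, which binds Igf2 messenger RNA, was 0.32 higher at 2500 ppm (limma adjusted p = 0.174) and 0.27 higher there than at 750 ppm (limma adjusted p = 0.329). At 750 ppm 9 of the 14 were above control, 0 were called, and Vtn, the vitronectin gene, was 0.64 higher (SE 0.16, limma adjusted p = 0.218; with array weights 0.56 and 0.0449). Between the doses 0 were called, with 9 above 0. The list shares the arrays on which the meningeal mean was higher, and its part in these values was not tested.

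Of 26 genes of signalling below the IGF receptor, 25 were tested and 0 were called in any comparison by limma with all arrays at equal weight. At an unadjusted p under 0.05 there were 1 higher and 2 lower at 2500 ppm, 2 and 2 at 750 ppm, and 2 and 2 between the doses. Over all probe sets tested the shares were 6.89% and 9.12%, 5.77% and 4.37%, and 5.25% and 7.33%. Their medians were -0.0018, 0.0034 and -0.0032 in these comparisons. Foxo1, a transcription factor that IGF signalling keeps out of the nucleus, was at -0.63 at 750 ppm (SE 0.14, limma adjusted p = 0.201) and -0.43 at 2500 ppm (limma adjusted p = 0.171). With array weights Foxo1 was called at -0.53 and -0.44 (limma adjusted p = 0.0442 and 0.0354). The kinase gene Gsk3b was at -0.35 at 2500 ppm (SE 0.095, limma adjusted p = 0.131). The receptor adaptor gene Grb10 was 0.41 higher at 750 ppm (SE 0.091, limma adjusted p = 0.201) and differed by -0.34 between the doses (limma adjusted p = 0.184). Grb14, of the same adaptor family, was at -0.28 between the doses (limma adjusted p = 0.301).

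Of 14 imprinted growth genes on the array, 11 were tested, and 0 were called in any comparison. At 750 ppm 11 of 11 were above control (50.9% of all probe sets tested), with a median of 0.16 (0.0023 over all). Of these, 2 were at an unadjusted p under 0.05 (5.77% of all), while Ndn and Gnas were at 0.0022 and 0.0036. The mean of the list was 10.35 in 750 ppm replicate 3, below the 10.36 of control replicate 1. Between the doses 10 of 11 were below 0 with a median of -0.24 (-0.0063 over all), and 6 were lower at that level (7.33% of all). Nnat and Sgce differed between the doses by -0.42 and -0.27 (limma adjusted p = 0.163 and 0.184). Without 750 ppm replicate 3 both were called between the doses, at -0.54 and -0.33 (limma adjusted p = 0.0110 and 0.0368), as was the noncoding gene Meg3 at -0.72 (limma adjusted p = 0.0121). At 2500 ppm Sgce was at -0.20 (limma adjusted p = 0.209). There 4 of 11 were above control and the median was -0.12. Cdkn1c, an inhibitor of the cell cycle, was 0.83 higher at 750 ppm and 0.73 higher at 2500 ppm (SE 0.23, limma adjusted p = 0.260 and 0.173). Without control replicate 1, Cdkn1c was called at 1.15 and 1.05 (limma adjusted p = 0.0294 and 0.0291), as Igf2 was. H19, the imprinted neighbour of Igf2, was 0.14 and 0.27 higher at 750 and 2500 ppm (limma adjusted p at 2500 ppm = 0.326).

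The genes whose values ran most closely with each IGF gene over the 9 arrays were taken by Pearson correlation on the probe set of highest mean. For Igf2 they were the collagen gene Col5a2 (r = 0.99), the matrix proteoglycan gene Ogn (0.99) and Gypc (0.99). For Igfbp2 they were Gnb1 (0.98), Aard (0.96) and the cyclooxygenase gene Ptgs1 (0.95). For Igf1 they were Cpne6 (0.99), Ap1s2 (0.96) and Eya2 (0.96), and Cpne6 had group means of 9.99, 10.41 and 9.90 in control, 750 and 2500 ppm. For Igfbp6 they were the microfibril gene Mfap2 (0.94), the prostacyclin synthase gene Ptgis (0.93) and Fcf1 (0.90). For Igf1r, Igf2r, Igfbp3, Igfbp4 and Igfbp5, the nearest were Mettl9 (0.95), Atg2b (0.95), Eprs1 (0.94), Wdfy2 (0.94) and Tm9sf4 (0.88). These are the highest of many correlations over 9 points, chosen for their size.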

How the data were processed

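The deposited values are log2 intensities of an Affymetrix rat 3' expression array with 31099 probe sets. Amplification started from 100 ng of RNA, per the labels' protocols, using the 3' IVT Express kit with 16 hours of transcription. Per the submitters' processing notes, the authors used affy and RMA; versions are not given in the sources used here. RMA quantile-normalizes the arrays, so a shift shared by most genes is removed, and it gives no detection calls. The number of arrays limits the precision.

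The 57 AFFX controls and the 30% of other probe sets with the lowest mean (9313, under 6.35) were left out. limma 3.58.1 in R 4.3.3 fitted 1 mean per group to all 9 arrays (prior degrees of freedom 3.25), with p-values adjusted by Benjamini-Hochberg over 21729 probe sets per comparison, two-sided. An exact permutation test of 3 against 3 cannot give a p below 0.1. Each pup came from its own litter. The fit was tested on simulated data. Gene symbols came from the platform annotation through Entrez identifiers, and promoter windows from RefSeq. List genes are represented by their probe set of highest mean. From the related lists, called genes and the 2 with the smallest p per comparison were named; H19, Ttr and genes called only under an alternative were named after their values were seen. Cell type lists also covered astrocytes, oligodendrocyte lineage and blood. Members and lists were chosen with earlier results of these data known.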

Additional observations from a re-analysis of the deposited data

How the results depend on the processing

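Each of the 54 differences (18 IGF probe sets, 3 comparisons) was recomputed under other filters, scalings, variance models, array weights, fits of the 2 groups compared, a replicate block and without single arrays. With 0 IGF probe sets called in the main fit, no main call could reverse. Among the 16 calls made under an alternative, 0 had a sign opposite to the main value. Uncalled values changed sign 49 times, in 20 of the 54 differences, the farthest of them with a main value of -0.13 (Igfbp5 on 1387348_at at 750 ppm). The count of IGF probe sets called, 0 in each comparison, became 2 at 2500 ppm, 2 at 750 ppm and 3 between the doses with array weights, adding Igf2r on 1367636_at (0.21, limma adjusted p = 0.0311) and Igfbp6 on 1372168_s_at (0.48, limma adjusted p = 0.0160) at 2500 ppm. It became 1 at 2500 ppm with a threshold of 0.1, and 1 at 750 ppm and 3 between the doses without both control replicate 3 and 750 ppm replicate 3. Leaving out single arrays gave 0 to 1, 0 to 1 and 0 to 2. The count of related genes called, 1, 0 and 0, was 4, 3 and 4 with array weights, 1, 0 and 8 without both arrays, and 0 to 2, 0 to 1 and 0 to 3 without single arrays. Beyond the related genes named with such values in the text, array weights called Pcsk4 at 2500 ppm, Mmp2 at 750 ppm, and Dlk1, Nnat, Meg3 and Sgce between the doses. Leaving out both arrays called Map2k1, Rictor, Eif4ebp1, Grb14, Dlk1, Nnat, Meg3 and Sgce between the doses.

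Over all probe sets, calls were 149, 2 and 70 in the same order. Array weights gave 1495, 340 and 721, fits of only the 2 groups 482, 1 and 14, a threshold of 0.1 585, 3 and 205, leaving out both arrays 250, 71 and 1137, and single arrays 9 to 447, 0 to 49 and 13 to 728. The split at 2500 ppm was 61 higher and 88 lower, and 74 and 71 after a second quantile normalization. With no filter 3 were called at 750 ppm.

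No clear pairing of the arrays by replicate number was seen. Deviations of same-numbered arrays from their group means correlated between -0.21 and 0.31, and 4 of 9 arrays were most alike to one of their own number. Deviations within a group of 3 arrays depend on each other, so this check cannot exclude a pairing. With the replicate block, 0 IGF probe sets were called in each comparison, and 122, 2 and 36 of all probe sets.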

Other observations

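Differences of astrocyte, oligodendrocyte lineage and blood genes were as follows. Astrocyte genes had a median difference of 0.0077 at 2500 ppm and 0.044 at 750 ppm over 8 genes. The 5 tested genes of the oligodendrocyte lineage had medians of 0.096 and -0.051, and their mean correlated with Igf1 at -0.77 over the 9 arrays. Of the blood list 2 genes were tested, both higher at each dose, with medians of 0.57 and 0.52. The Igf2 and Igfbp2 values correlated with the blood mean at 0.77 and 0.65.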
